A study of Mus musculus with 13 samples.

Results

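The expression of 10 genes of the lipid-associated macrophage programme, Trem2, Tyrobp, Gpnmb, Cd9, Fabp5, Lpl, Lgals3, Apoe, Plin2 and Abca1, was followed through cholangitis in the mouse liver. The genes were taken by name out of 55353 measured gene symbols, with earlier results of these data known. Macrophages were taken by their unique molecular identifiers (UMIs, each standing for 1 captured transcript): of 95563 barcodes with at least 1500 UMIs, 15221 held at least 5 UMIs of the complement genes C1qa, C1qb and C1qc together. Of these, 4360 had at least 2 UMIs of Clec4f, a lectin that marks Kupffer cells, the resident macrophages of the liver, and form the Clec4f+ gate. Another 9622 had no Clec4f UMI and form the Clec4f- gate. The remaining 1239 barcodes, with 1 Clec4f UMI, were left out of both gates.

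The data are 13 single-cell RNA-seq libraries (10x Genomics 3′ chemistry) from livers of male C57BL/6J mice aged 6 to 12 weeks. Steady state is D0, mice on control chow. DDC is 3,5-diethoxycarbonyl-1,4-dihydrocollidine, a porphyrinogenic compound that injures the bile ducts, and the other mice ate chow with 0.1% of it for 3 (D3), 5 (D5), 9 (D9), 19 (D19) or 25 days (D25). Each of these days has 1 library from each of 2 isolation protocols, A and B, and D19 of protocol B is labelled as 18 days of diet. In the STOP library, made with protocol B only, mice had 18 days of DDC and then 7 days of recovery. D3 and D5 are called onset here (4 libraries) and D9, D19 and D25 progression (6 libraries). The labels do not say how many mice entered a library, so a library is the sample, and p-values measure the spread between libraries.

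The protocols enriched different cells. Protocol A took Cd45+ cells and several stromal and epithelial fractions, while the dendritic cell sort of protocol B took Cd45+ Itgax+ cells that lacked Cd64, an Fc receptor of macrophages. Clec4f+ cells were 24.0 to 70.2% of the C1q-gated barcodes in protocol A, 9.75 to 14.9% in protocol B from D0 to D25 and 21.2% in STOP. A library held 171 to 1921 Clec4f- macrophages and 23 to 948 Clec4f+ macrophages. The Clec4f+ gate is thin at D0 of protocol B, with 37 cells, and at D3 of protocol B, with 23. The libraries held 29307190 to 108602421 UMIs each, and no pair of them shared more than 0.519% of its barcodes.

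The Clec4f- gate carried macrophage markers and the Clec4f+ gate Kupffer cell markers, each beside markers of other lineages. The summed level of 6 macrophage markers (Adgre1, Csf1r, Cd68, Fcgr1, Mertk and Ms4a7) in the Clec4f- gate was 1572 to 2239.8 UMIs per 1000000 UMIs of the gate (CPM) at D0, 1616 to 1832 at onset and 1877 to 2250.2 at progression. Markers of Kupffer cells (the 6 genes Vsig4, Timd4, Cd5l, Marco, Folr2 and Cd163) summed to at least 4612 CPM in every Clec4f+ library and at most 846 CPM in the Clec4f- libraries. The gates were not pure: from D0 to D25, 28.7 to 61.3% of the Clec4f- and 27.6 to 68.4% of the Clec4f+ barcodes of a library also met the marker rule of another lineage, and in STOP 70.1 and 60.8%. For this share the rules of the epithelial, endothelial, stromal and hepatocyte lineages were applied whether or not the barcode had a UMI of Ptprc (Cd45), which their gates do not allow. Monocytes are not counted among these lineages, and their rule was met by 31.2 to 87.4% of the Clec4f- and 21.6 to 63.8% of the Clec4f+ barcodes. In Clec4f- cells, antigen presentation and dendritic cell (DC) markers summed to 18932 and 36211 CPM at D0, 11447 to 19352 CPM at onset and 1744 to 17422 CPM at progression. In the DC gate itself they summed to 22759 and 34527 CPM at D0 and 28003 to 37385 CPM at progression. By these markers the Clec4f- gate at D0 was thus not set apart from DCs. The 3 B cell markers summed to 76.4 and 231 CPM at D0 and 16.7 to 21.1 CPM at progression, and the 5 neutrophil markers to 521 and 3627 CPM and 133 to 1034 CPM. Markers of biliary epithelial cells (BECs), of which Spp1 is one, moved the other way, from 25.8 and 1009.5 CPM to 641 to 7089 CPM at onset and 2678 to 6262 CPM at progression. The 7 monocyte markers likewise went from 6535 and 7423 CPM to 6889 to 10698 CPM at onset and 8852 to 13792 CPM at progression. The part of these cells in the levels below was tested only by leaving out the barcodes of other lineages, and that of the monocyte genes was not tested. In sums of this kind, fewer cells of a type and less RNA per cell cannot be told apart.

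Lipid-associated macrophages form wherever phagocytes take up much lipid and cell debris, as in obese fat, in atherosclerotic plaques and around injured liver tissue. Trem2 is a surface receptor for lipids, lipoproteins and apoptotic cells. It has no signaling tail of its own and works through Tyrobp (DAP12), an adaptor that recruits the kinase Syk and that many other myeloid receptors share. Lpl releases fatty acids from triglyceride-rich particles, Fabp5 carries fatty acids within the cell and Plin2 coats lipid droplets. Abca1 exports cholesterol and phospholipid onto apolipoproteins, among them Apoe, which macrophages secrete. Gpnmb is a transmembrane glycoprotein linked to lysosomes, Lgals3 (galectin-3) is a lectin that binds damaged membranes, and Cd9 is a tetraspanin of the plasma membrane and of exosomes.

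The promoters of 4 of these genes are shown because they hold letters of motifs that are bound by factors of macrophages or of lysosomal genes. Each window runs from 250 bases before to 50 bases after the RefSeq start site (assembly GRCm38.p6) and is written 5′ to 3′ on the strand of the gene, with motif letters in capitals. They lie at chr17:48346151-48346450 on the plus strand for Trem2, chr6:49036268-49036567 on the plus strand for Gpnmb, chr4:86670010-86670309 on the minus strand for Plin2 and chr4:53159846-53160145 on the minus strand for Abca1.
Trem2: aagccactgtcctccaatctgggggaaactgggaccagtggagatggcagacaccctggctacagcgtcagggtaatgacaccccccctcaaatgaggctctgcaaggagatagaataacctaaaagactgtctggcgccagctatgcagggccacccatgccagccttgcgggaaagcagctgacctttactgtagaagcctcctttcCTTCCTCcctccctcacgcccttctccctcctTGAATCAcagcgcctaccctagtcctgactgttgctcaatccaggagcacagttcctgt
Gpnmb: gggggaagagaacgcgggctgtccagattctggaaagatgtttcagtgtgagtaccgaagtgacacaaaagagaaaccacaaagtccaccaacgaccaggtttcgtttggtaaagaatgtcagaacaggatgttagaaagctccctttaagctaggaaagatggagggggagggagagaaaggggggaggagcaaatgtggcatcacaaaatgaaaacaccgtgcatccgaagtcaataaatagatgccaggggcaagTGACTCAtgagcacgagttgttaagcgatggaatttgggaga
Plin2: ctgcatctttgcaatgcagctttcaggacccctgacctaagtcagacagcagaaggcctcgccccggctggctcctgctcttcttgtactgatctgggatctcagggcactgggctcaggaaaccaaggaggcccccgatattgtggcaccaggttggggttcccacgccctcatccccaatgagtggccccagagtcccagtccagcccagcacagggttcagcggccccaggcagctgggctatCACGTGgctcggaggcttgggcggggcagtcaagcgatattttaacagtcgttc
Abca1: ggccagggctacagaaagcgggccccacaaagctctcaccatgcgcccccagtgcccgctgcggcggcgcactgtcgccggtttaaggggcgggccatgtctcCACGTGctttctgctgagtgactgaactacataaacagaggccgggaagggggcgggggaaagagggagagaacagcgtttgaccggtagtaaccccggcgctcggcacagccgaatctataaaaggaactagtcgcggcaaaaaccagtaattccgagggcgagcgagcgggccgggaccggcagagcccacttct

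A window was listed for 7 of the 10 genes, all but Tyrobp, Fabp5 and Lpl. Both strands were searched for CACGTG (E-box, also the core of the site of the MiT/TFE factors), TCATGTG (M-box), TGANTCA (AP-1) and GAGGAAG (PU.1), of which no pair overlapped in these windows. Trem2 held a match to the TGANTCA letters, read as TGAATCA with an A at the open position, that begins 9 bases before the start site. It also held a PU.1 match on the other strand, read as CTTCCTC, 41 bases before the start site. Gpnmb held an AP-1 match, read as TGACTCA, beginning 9 bases after the start site. Plin2 and Abca1 each held an E-box, beginning 4 and 147 bases before the start site. The windows of Cd9, Lgals3 and Apoe held none of the 4 motifs. Among all 32851 promoter windows of the same length, 7.15% held the E-box letters, 3.77% the M-box, 7.81% the AP-1 and 13.6% the PU.1 letters. A match is a description of these letters and not a measured binding site.

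In Clec4f- macrophages, the receptor Trem2 was low at steady state and higher at every day of DDC. Its level was 151 and 144 CPM at D0 (protocols A and B), 397 and 482 CPM at D3, and 477 and 563 CPM at D5. At progression it ran from 502 to 909 CPM with a median of 784. All 10 DDC libraries stood above both D0 libraries. Relative to D0, Trem2 rose by a log2 fold change of 1.69 at onset (SE 0.28, adjusted p = 0.0227, edgeR quasi-likelihood test with isolation protocol as a term, Benjamini-Hochberg over all genes tested) and of 2.32 at progression (SE 0.28, adjusted p = 0.00223). Its adaptor Tyrobp was not called at either stage. Tyrobp measured 1728 and 2952 CPM at D0, and its onset range (1633 to 2751 CPM) and progression range (1946 to 2925 CPM) lay almost wholly between these values, with a log2 fold change of 0.05 at progression (SE 0.28, adjusted p = 0.947). The direction differed by protocol, at 0.78 within protocol A and -0.51 within protocol B, each against 1 D0 library. A change of Tyrobp in either direction is thus not settled.

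Gpnmb had the largest fold change of the 10 genes in this gate. It measured 40.6 and 21.5 CPM at D0, 356 and 630.3 CPM at D3 and 418 and 236 CPM at D5, and from 380.0 to 1397 CPM at progression (median 902). The gap between D0 and every DDC library was wide, while the onset and progression libraries overlapped. The log2 fold change was 3.75 at onset (SE 0.60, adjusted p = 0.0226) and 4.82 at progression (SE 0.63, adjusted p = 0.00291).

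The lipoprotein lipase gene Lpl was also called at both stages. It measured 239 and 75.1 CPM at D0, 793 and 1137 CPM at D3, 852 and 611 CPM at D5, and 821 to 1423 CPM at progression (median 1072). Again no DDC library reached down to D0. Lpl rose by 2.60 on the log2 scale at onset (SE 0.36, adjusted p = 0.0182) and by 2.94 at progression (SE 0.36, adjusted p = 0.00223). The fatty acid carrier Fabp5 measured 82.1 and 217 CPM at D0, 412 to 738 CPM at onset and 475 to 2148 CPM at progression. Its log2 fold change was 1.66 at onset, which did not pass the test (SE 0.62, adjusted p = 0.213), and 2.69 at progression, which did (SE 0.64, adjusted p = 0.0390).

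The genes of lipid storage and efflux changed by less. Plin2 measured 185 and 132 CPM at D0, 293 and 248 CPM at D3, 227 and 185 CPM at D5, and 272 to 581 CPM at progression (median 402). It rose at progression by 1.37 on the log2 scale (SE 0.30, adjusted p = 0.0296). The cholesterol exporter Abca1 differed between the 2 D0 libraries, at 173 CPM in protocol A and 28.2 CPM in protocol B, so that its progression range of 161 to 361 CPM overlapped D0. With protocol as a term it rose by 1.64 (SE 0.37, adjusted p = 0.0319). Apoe measured 17779 and 8366 CPM at D0, 14175 to 25209.5 CPM at onset and 25097 to 41842 CPM at progression. All 6 progression libraries exceeded D0, and its log2 fold change of 1.43 stood just short of the threshold (SE 0.38, adjusted p = 0.0539).

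Lgals3 and Cd9 completed the set. Lgals3 measured 341 and 945 CPM at D0, 1955 and 2118 CPM at D3, 2396 and 2410.4 CPM at D5, and 1749 to 3646 CPM at progression, a rise of 2.09 (SE 0.45, adjusted p = 0.0284). Cd9 measured 301 and 299 CPM at D0, 429.5 to 647 CPM at onset and 415 to 914 CPM at progression, a rise of 1.04 (SE 0.26, adjusted p = 0.0477). For both genes every DDC library exceeded both D0 libraries. At onset neither passed the test, with log2 fold changes of 1.76 for Lgals3 (adjusted p = 0.101) and 0.81 for Cd9 (adjusted p = 0.171).

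**Figure D1:**
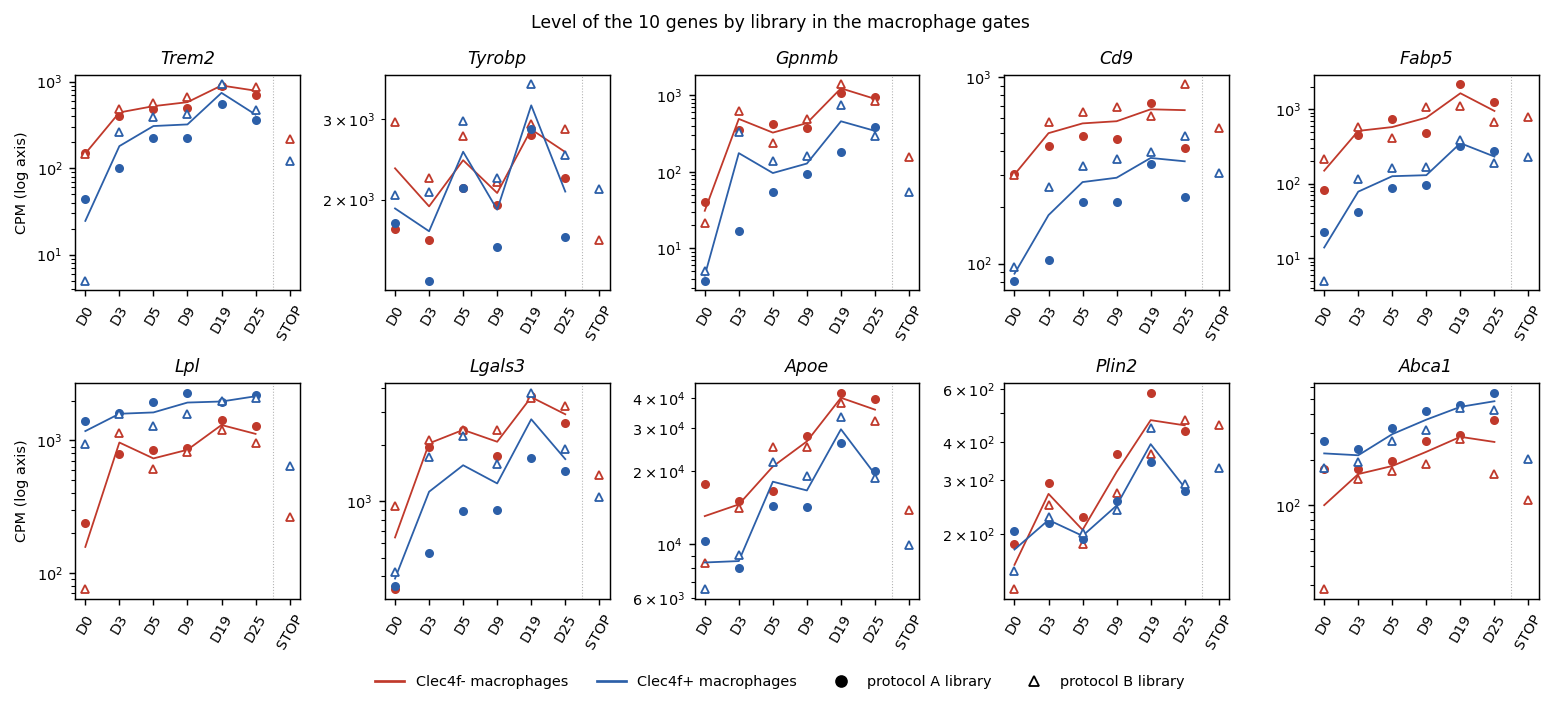
Level of each of the 10 genes (CPM, log axis) against day of DDC in the Clec4f- and Clec4f+ gates, 1 point per library (filled circles protocol A, open triangles protocol B), lines through the means of each day and the STOP library at the right. Trem2 and Gpnmb leave their D0 levels by D3 in the Clec4f- gate, and Tyrobp stays between 1633 and 2952 CPM there. In the Clec4f+ gate Tyrobp runs from 1333 to 3564 CPM, and the D0 libraries of the 2 protocols lie apart for Trem2, at 44.1 and 5.03 CPM.

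Counted over the set, 3 of the 10 genes were called higher in Clec4f- macrophages at onset (Trem2, Gpnmb and Lpl) and none lower, where 0.8% of 13745 genes tested were called in either direction. At progression 8 were called higher and none lower, all but Tyrobp and Apoe, where 4.39% of all genes were called. The median log2 fold change of the 10 genes was 1.40 at onset and 1.87 at progression, and that of all genes tested was 0.05 and 0.07. Both comparisons share the D0 libraries. Since the set was chosen with earlier results of these data known, these counts describe it and do not test it. Between onset and progression no gene of the set was called by edgeR, where 0.0146% of all genes were, although the unadjusted p of 5 was under 0.05 and Apoe and Plin2, 2 of the 10, were called by DESeq2. The largest of these differences were 1.07 for Gpnmb (adjusted p = 0.349), 1.03 for Fabp5 (adjusted p = 0.419) and 0.89 for Apoe (adjusted p = 0.324).

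For some of the genes the calls at progression depended on single libraries. With the barcodes that met another lineage's marker rule left out, 9 genes were called instead of 8. Trem2, Gpnmb and Lpl stayed called whichever library was left out, while Cd9, Fabp5, Lgals3, Plin2 and Abca1 were each lost in at least 1 such fit: 4 genes were called without D0 of protocol A, 5 without D0 of protocol B, 3 without D19 of protocol B and 4 without D25 of protocol A. The fold changes of 3 of these genes moved most with the D0 libraries. Without D0 of protocol A and without D0 of protocol B they were 1.81 and 4.29 for Fabp5, 1.32 and 3.35 for Lgals3, and 2.59 and 1.11 for Abca1. Within 1 protocol alone, as in the fits without a D0 library, D0 is 1 library, assumed to vary like the others. The log2 fold changes within protocols A and B were 2.57 and 2.13 for Trem2 and 4.68 and 5.04 for Gpnmb. Within protocol A alone the calls at progression were not kept. At onset, 5 genes were called with the other lineages left out, 0 in protocol A alone, and Lpl only without D3 or without D5 of protocol A. Without D0 of protocol A and without D0 of protocol B the onset fold changes were 0.99 and 3.04 for Lgals3, which was called in the latter fit (adjusted p = 0.0265), 0.80 and 3.29 for Fabp5, called in neither, and 2.08 and 0.61 for Abca1, called in the former (adjusted p = 0.0156).

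**Figure D2:**
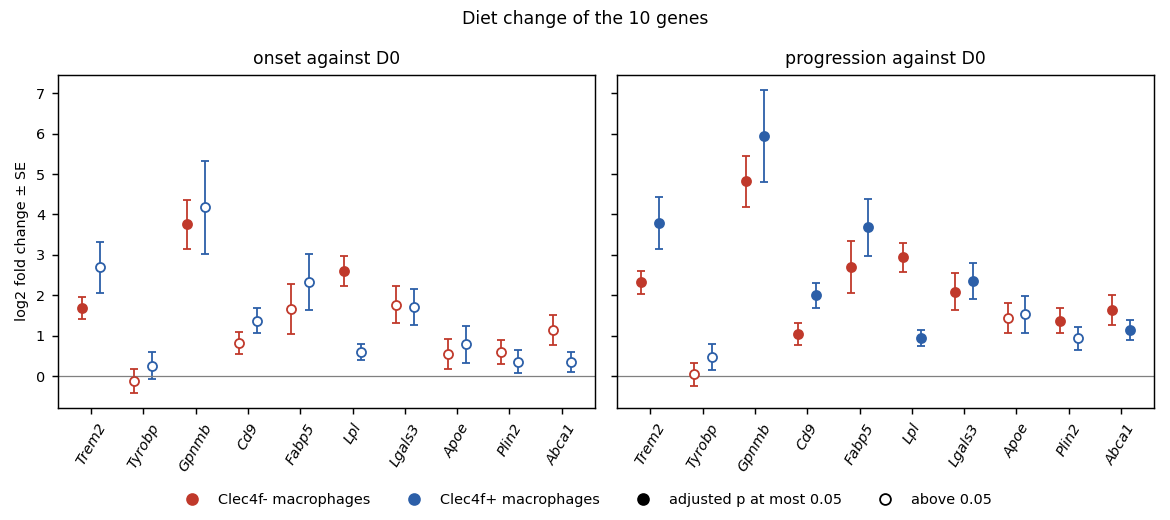
Log2 fold change against D0 with its standard error for each of the 10 genes, at onset and at progression, in the Clec4f- and Clec4f+ gates; filled symbols passed an adjusted p of 0.05. Filled symbols are 3 at onset and 8 at progression in the Clec4f- gate, and 0 and 7 in the Clec4f+ gate.

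In Clec4f+ macrophages the same set started from other levels. Trem2 measured 44.1 and 5.03 CPM at D0, and the second of these values is 1 UMI in 37 cells (95% Poisson interval 0.127 to 28.0 CPM, counting error only). It then measured 100.1 and 259 CPM at D3, 225 and 388 CPM at D5, and 221 to 929 CPM at progression (median 445). Gpnmb measured 3.81 and 5.03 CPM at D0, the second again 1 UMI, 17.0 and 335 CPM at D3, 54.7 and 139 CPM at D5, and 94.9 to 739 CPM at progression. For both genes every DDC library stood above D0. At progression Trem2 rose by 3.80 on the log2 scale (SE 0.64, adjusted p = 0.0133). Gpnmb was called at 5.95 (SE 1.14, adjusted p = 0.0224). Its D0 levels lie below those in T cells at D0, 6.41 and 13.7 CPM, and it passed the filter on low counts only through the DDC libraries. No change is read from its calls in this gate.

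Lpl had at least 1 UMI in 62.2 to 70.9% of these cells already at steady state, against 0.0608 to 5.19% of T cells of the same libraries, with each cell thinned to 1500 UMIs. It measured 1409.7 and 945 CPM at D0, 1602 and 1580.3 CPM at D3, 1964 and 1293 CPM at D5, and 1588 to 2280.0 CPM at progression, a rise of 0.95 (SE 0.20, adjusted p = 0.0318). Abca1 measured 263 and 176 CPM at D0, 193 to 324 CPM at onset and 311 to 545 CPM at progression, a rise of 1.14 (SE 0.25, adjusted p = 0.0358). Fabp5 measured 22.8 and 5.03 CPM at D0, the latter 1 UMI, 41.9 to 164 CPM at onset and 94.7 to 380.2 CPM at progression. It was called at 3.69 (SE 0.70, adjusted p = 0.0224). Its D0 levels lie below those in T cells at D0, 39.4 and 51.5 CPM, and no change is read from its calls in this gate. Of these 3 genes, Fabp5 was above both D0 libraries in all 10 DDC libraries, and Lpl and Abca1 in all 6 of progression.

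Cd9 measured 81.2 and 95.5 CPM at D0 and 214 to 480.2 CPM at progression, and it was called at 2.00 (SE 0.31, adjusted p = 0.0107). Its D0 levels were near those in T cells at D0, 83.0 and 123.5 CPM, so that the size of this change is not read. Lgals3 measured 355 and 422 CPM at D0, 533 and 1719 CPM at D3, 889 and 2227 CPM at D5, and 902 to 3771 CPM at progression, a rise of 2.35 (SE 0.45, adjusted p = 0.0224). Its highest library, D19 of protocol B, stood apart from the next one at 1912 CPM. Apoe (6544 and 10319 CPM at D0, 14261 to 33414 CPM at progression) and Plin2 (205 and 151 CPM at D0, 239.5 to 445 CPM at progression) did not overlap D0 either but did not pass the test, with log2 fold changes of 1.53 (adjusted p = 0.0981) and 0.93 (adjusted p = 0.101). Tyrobp overlapped D0, at 1781 and 2046 CPM against 1577 to 3564 CPM, with a log2 fold change of 0.47 (adjusted p = 0.459).

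At progression 7 of the 10 genes were thus called higher in Clec4f+ macrophages and none lower, where 1.8% of 11642 genes were called. The median log2 fold change of the 10 was 1.77 against 0.06 for all genes. The 7 include Gpnmb and Fabp5, from whose calls in this gate no change is read. Marker sums of other cells moved in this gate too: those of B cells were 32.7 and 95.5 CPM at D0 and 10.4 to 18.6 CPM at progression, those of BECs 0 and 743 CPM and 241 to 3268 CPM, and those of DCs 3035 and 11526 CPM and 1323 to 7456 CPM. Apart from leaving out the barcodes of other lineages, their part was not tested. The calls depended on the 2 D0 libraries. Without either one no gene of the set was called, as also in each protocol alone and when gates of at least 50 cells were required, which leaves out D0 and D3 of protocol B. Over the fits that left out 1 library the log2 fold changes ran from 3.29 to 7.02 for Trem2, 5.37 to 6.75 for Gpnmb, 3.39 to 5.86 for Fabp5 and 1.82 to 2.18 for Cd9. The highest values of Trem2, Gpnmb and Fabp5 came without D0 of protocol A, which leaves 1 UMI of each at D0. With the other lineages left out, 9 genes were called. At onset edgeR called none of the 10, where 0.146% of all genes were called, but the unadjusted p of 6 was under 0.05 and the DESeq2 fit called 6 (Trem2, Gpnmb, Cd9, Fabp5, Lpl and Lgals3). The onset median was 1.08 against 0.04 for all genes. Between onset and progression none was called, where 0.0687% of all genes were, with 8 at an unadjusted p under 0.05 and 1 called by DESeq2 (Abca1).

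Free RNA in the droplets bears on these levels. Barcodes with 10 to 100 UMIs, which hold too little RNA for a cell, gave a CPM per gene and library that the gates were set beside. In the Clec4f- gate Trem2 exceeded it in 12 of 12 libraries, by a median of 4.04 times, though by only 1.01 times in D19 of protocol A, and Gpnmb exceeded it in 12 of 12 by a median of 7.63 times. Lgals3, Apoe, Plin2 and Abca1 exceeded it in 12 of 12 too, Fabp5 and Lpl in 11, Cd9 in 10 and Tyrobp in 9. In D0 of protocol A, Fabp5 was at 0.618 and Lpl at 0.893 times the free RNA. In the Clec4f+ gate Lpl and Abca1 exceeded it in 12 of 12 libraries, Trem2 in 10, Gpnmb in 9 and Lgals3 in 8. Cd9 exceeded it in 3 of 12 and Fabp5 in 2 of 12, so that the levels of these genes in Clec4f+ cells were mostly below those of the surrounding RNA. The free RNA itself held more of these transcripts under DDC. Trem2 in it went from 11.5 and 12.8 CPM at D0 to 73.9 to 161 CPM at onset and 76.4 to 887 CPM at progression, and Gpnmb from 1.10 and 1.28 CPM to 17.3 to 113 CPM and 66.8 to 407 CPM. Its part in the changes with diet was not tested. In T cells the level of Trem2 was a median of 0.0161 times that of the free RNA. For Gpnmb the median was 0.0797 times, but T cells lay above the free RNA in 2 of 12 libraries, by 12.5 times in D0 of protocol A.

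The 2 gates of each library were then set against each other, in a fit that took the library as a block. Clec4f- macrophages had the higher level of 7 of the 10 genes. The difference was 2.39 on the log2 scale for Fabp5 (SE 0.18, adjusted p = 1.18e-08), 1.95 for Gpnmb (SE 0.27, adjusted p = 1.43e-05), 1.23 for Cd9 (SE 0.12, adjusted p = 2.26e-07) and 1.05 for Trem2 (SE 0.18, adjusted p = 0.000129). It was 0.81 for Lgals3, 0.66 for Apoe and 0.32 for Plin2, and these 3 were not called within protocol B alone (0.53, 0.51 and 0.15, adjusted p = 0.0733, 0.0555 and 0.524). Clec4f+ macrophages had the higher level of Lpl, by 1.17 (SE 0.19, adjusted p = 8.22e-05), and of Abca1, by 0.72 (SE 0.10, adjusted p = 2.07e-05). Tyrobp was not called, at 0.18 (SE 0.10, adjusted p = 0.176). The background is high here, since 40% of 11663 genes were called between the gates, and the median of the 10 genes was 0.73 against 0.03 for all.

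Whether DDC changed the genes differently in the gates was asked of the interaction of gate and diet, D3 to D25 against D0. Of the 10 genes only Lpl was called, where 0.0556% of 14392 genes were: its change with diet was larger in Clec4f- than in Clec4f+ macrophages by 1.99 (SE 0.25, adjusted p = 0.00142). In Clec4f- cells Lpl went from 157 ± 116 CPM at D0 (SD, n = 2) to 1094 ± 245 CPM at progression (n = 6), and in Clec4f+ cells from 1177 ± 329 to 2021 ± 248 CPM. In D0 of protocol A, Lpl in Clec4f- cells was at 0.893 times the free RNA, whose part was not tested. The difference was 2.32 within protocol B (adjusted p = 0.00444) and 1.64 within protocol A, where it was not called (adjusted p = 0.159), nor was it without D0 of protocol B (1.75, adjusted p = 0.0758). It was called when gates of at least 50 cells were required (1.71, adjusted p = 0.0211). For Trem2 the difference was -1.27 (SE 0.50, adjusted p = 0.504) and for Gpnmb -1.39 (SE 1.31, adjusted p = 0.875). Neither passed the test with all libraries. Within protocol B the Trem2 difference was -4.72 (adjusted p = 0.0381) and within protocol A -0.56 (adjusted p = 0.696). In each of these fits D0 is 1 library per gate, assumed to vary like the DDC libraries, and in protocol B it holds 1 Trem2 UMI in 37 Clec4f+ cells, so that no difference is read from it. It was -4.35 without D0 of protocol A, which leaves 1 UMI of Trem2 in Clec4f+ cells at D0, and -0.79 without D0 of protocol B. By an unadjusted p under 0.05, 3 of the 10 genes differed, and DESeq2 called 1.

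The share of cells with a transcript moved with the level. After each cell was thinned to 1500 UMIs, Trem2 was detected in 18.1 and 21.0% of Clec4f- macrophages at D0 and in 33.5 to 62.3% at D3 to D25, a difference of the means of 28.3 percentage points. Gpnmb was detected in 2.34 and 2.33% at D0 and in 19.8 to 42.3% under DDC, a difference of 29.8 points. In Clec4f+ macrophages Trem2 went from 5.02 and 0% to 11.4 to 65.0%, a difference of 33.3 points. The 0 of 37 cells allow a share of cells with a UMI at this thinned depth of up to 8.11%, and without thinning 1 of these 37 cells had one. Each of the 3 differences had p = 0.0278 in an exact two-sided permutation test within protocols, the smallest that its 36 arrangements allow, and an adjusted p of 0.0370 over 4 such tests. For Gpnmb in Clec4f+ macrophages the shares were 0.418 and 0% at D0 and 1.70 to 41.5% under DDC, a difference of 16.6 points that did not pass (exact permutation p = 0.0833). Without thinning, Trem2 was found in 39.8 and 40.7% of Clec4f- macrophages at D0 and in 63.4 to 88.1% under DDC, and Gpnmb in 4.68 and 5.33% and in 38.0 to 66.2%. In Clec4f+ macrophages the unthinned shares were 2.70 to 16.5% and 40.0 to 89.4% for Trem2, and 1.88 to 2.70% and 8.86 to 67.5% for Gpnmb. T cells, which should lack both transcripts, showed after thinning Trem2 in 0 to 1.67% and Gpnmb in 0 to 6.45% of cells. Their median depth was 2172 to 7486 UMIs per cell in a library, against 5210.0 to 26074.5 in Clec4f- macrophages. The D0 shares of Gpnmb in both gates lie within that background range, and the D0 shares of Trem2 in Clec4f- cells lie above it. The T gate allows at most 1 C1q UMI, which keeps out barcodes with much macrophage RNA, so that this range may be too low.

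**Figure D3:**
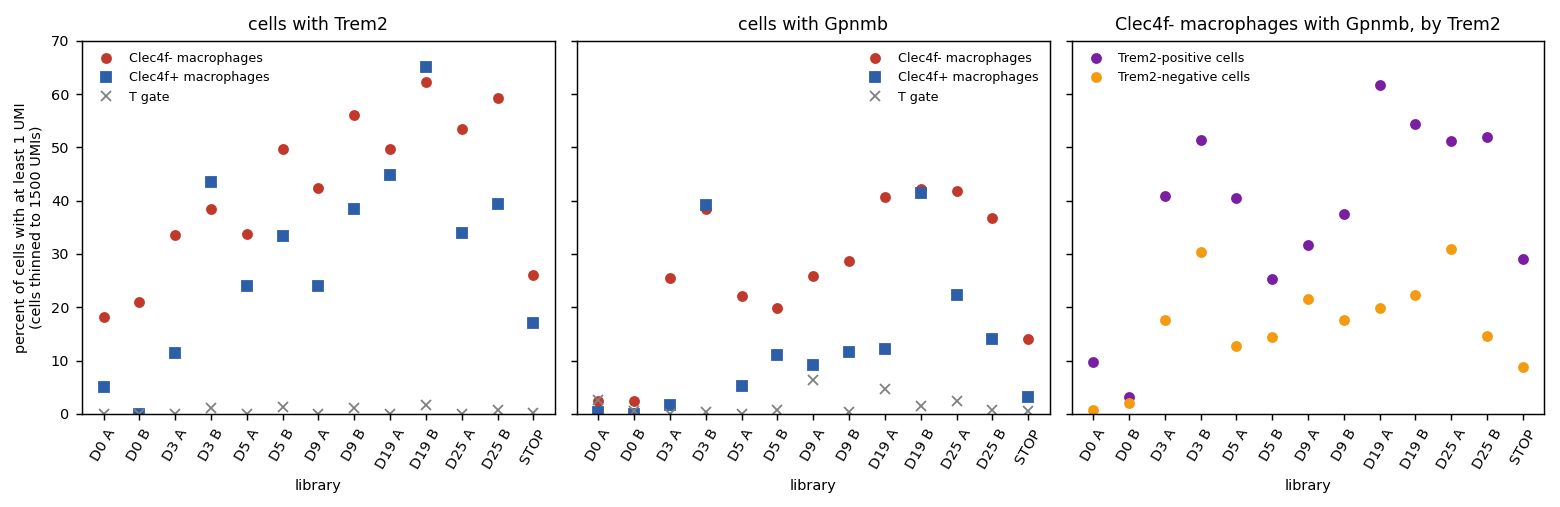
Percentage of cells with at least 1 UMI after thinning to 1500 UMIs per cell, 1 point per library: Trem2 (left panel) and Gpnmb (middle panel) in Clec4f- macrophages, Clec4f+ macrophages and T cells by day, and Gpnmb in Trem2-positive and Trem2-negative Clec4f- macrophages (right panel). T cells stay at or below 1.67% for Trem2 and 6.45% for Gpnmb, and in 12 of 12 libraries Gpnmb is the more frequent in the Trem2-positive cells.

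Gpnmb was found more often in the cells that had Trem2. Among Clec4f- macrophages, 3.17 to 61.7% of Trem2-positive cells of a library had a Gpnmb UMI, against 0.714 to 30.9% of Trem2-negative cells. The difference was positive in 12 of 12 libraries and averaged 21.2 percentage points (SD 12.2, n = 12, exact two-sided sign-flip permutation p = 0.000488, the smallest that 4096 flips allow). In D0 of protocol B it rests on 2 of 63 and 5 of 237 cells, and it turned there with the other lineages left out (1.85 against 1.88%) and with a detection limit of 2 UMIs (0 against 0.702%), with 11 of 12 libraries positive under each. With the other lineages left out the difference was smaller in every library from D0 to D25. In D19 of protocol A it went from 61.7 against 19.9% to 66.4 against 46.6%, and in D3 of protocol B from 51.3 against 30.3% to 56.3 against 35.7%. Other members were also at higher CPM in Trem2-positive cells, by a median ratio over libraries of 3.23 for Gpnmb, 2.44 for Fabp5, 2.30 for Apoe, 2.23 for Lpl, 1.75 for Lgals3, 1.69 for Tyrobp, 1.61 for Plin2, 1.46 for Abca1 and 1.27 for Cd9. Fabp5 and Abca1 were higher in 11 of 12 libraries and the others in 12. The summed macrophage markers were higher in these cells too, by 1.79 times (12 of 12 libraries), and so were the monocyte markers, by 2.08 times (12 of 12), and the Kupffer cell markers, by 1.40 times (8 of 12). The part of this in the ratios was not tested. In Clec4f+ macrophages, over 10 libraries, the median ratio was 2.56 for Gpnmb (higher in 8), 1.44 for Fabp5 (8) and 1.05 for Cd9 (6), while Tyrobp, Lpl, Lgals3 and Apoe were higher in 10 and Plin2 and Abca1 in 9. Marker sums were higher there in 10 of 10 libraries, by 1.60 times for monocytes, 1.32 for macrophages and 1.19 for Kupffer cells, and their part was not tested.

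Across the other cell gates of the same libraries, the 10 genes did not share 1 pattern. Trem2 averaged 562 ± 260 CPM in Clec4f- macrophages (SD, n = 12 libraries), 331 ± 254 in Clec4f+ macrophages and 151 ± 137 in monocytes, neighbors whose ranges over libraries overlap. It averaged 2.55 to 19.7 CPM in the remaining 7 gates and measured 0 to 13.98 CPM in the T cells of a library. The T gate allows at most 1 C1q UMI, so that this is the background of barcodes with little macrophage RNA. The free RNA held more. Gpnmb followed the same order at the top, with 571 ± 425, 202 ± 214 and 80.9 ± 82.2 CPM, and then 50.9 ± 35.9 CPM in the gate of stellate cells and fibroblasts (n = 7). Tyrobp was highest in neutrophils (4122 ± 1077 CPM, n = 11) and monocytes (2958 ± 639 CPM), ahead of both macrophage gates (2359.8 ± 472 and 2226 ± 647 CPM), and the ranges of these neighbors overlap. Cd9 was highest in neutrophils (1123 ± 256 CPM) and BECs (993 ± 366 CPM, n = 9) and reached 547 ± 183 CPM in Clec4f- macrophages. Lpl and Abca1 were the only members with their highest mean in Clec4f+ macrophages, at 1743 ± 406 and 336 ± 116 CPM. Apoe, Fabp5, Lgals3 and Plin2 had theirs in Clec4f- macrophages.

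**Figure D4:**
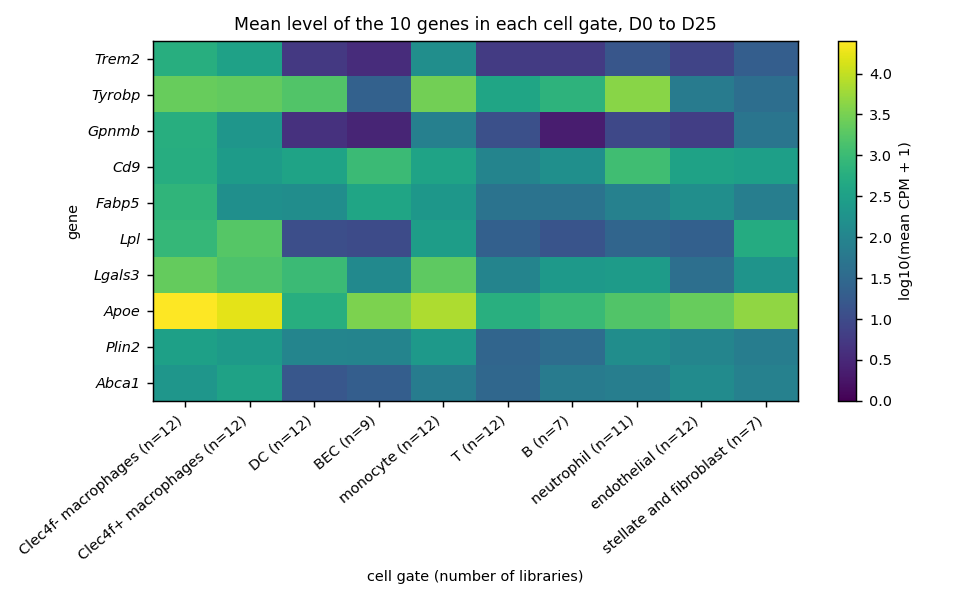
Heat map of the log10 of mean CPM + 1 of the 10 genes (rows) over the libraries in each of 10 cell gates (columns). The 2 macrophage gates hold the highest mean of every gene but Tyrobp and Cd9, whose highest mean is in neutrophils.

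Against DCs, which were gated by class II antigen presentation and DC genes with at most 1 C1q UMI, all 10 genes were called higher in Clec4f- macrophages within libraries, where 54.9% of 11954 genes were called. The log2 difference ran from 0.50 for Tyrobp to 7.46 for Trem2 and 7.60 for Gpnmb, and that of Cd9 (0.51) was not called within protocol A alone (0.36, adjusted p = 0.121). Trem2 in DCs measured 0 to 14.1 CPM and in T cells 0 to 13.98 CPM, and Gpnmb 0 to 14.1 CPM and 2.61 to 40.4 CPM. Their levels in DCs are thus in the range of T cells. The limit of 1 C1q UMI also keeps barcodes with much macrophage RNA out of the DC gate. Neither the size nor the call of these 2 differences is read. No member was called between DDC and D0 in DCs by edgeR, where 0.11% of 13576 genes were called, with 2 at an unadjusted p under 0.05 and 1 called by DESeq2 (Trem2). Within protocol B 4 were called (Trem2, Gpnmb, Apoe and Abca1), where 2462 of 14132 genes were, and without D0 of protocol A also 4 (Trem2, Tyrobp, Apoe and Abca1), where 2247 of 14451 genes were. In both of these fits D0 is 1 library, assumed to vary like the others. In DCs of D0 Trem2 and Gpnmb each had 0 UMIs in protocol A and 1 UMI in protocol B, so that they passed the filter on low counts only through the DDC libraries, and no change is read from their calls, that of DESeq2 included. Apoe turned from -0.37 with all libraries (adjusted p = 0.825) to 2.25 within protocol B (adjusted p = 0.0113). Against BECs, 9 genes were called higher in Clec4f- macrophages and Cd9 lower, at -0.36, where 69.5% of 12219 genes were called. The 9 include Trem2 and Gpnmb, at most 5.75 and 4.57 CPM in BECs, from whose calls nothing is read either. The Cd9 difference was called in neither protocol alone (-0.53 in A, adjusted p = 0.0763, and -0.19 in B, adjusted p = 0.141), and that of Fabp5 was not called in protocol A (adjusted p = 0.0681). In BECs the steady state rests on D0 of protocol A alone, since protocol B gave 1 such cell. Trem2 had no UMI there and measured 0 to 5.75 CPM in all BEC libraries, within the range in T cells of 0 to 13.98 CPM. It passed the filter on low counts only through the DDC libraries. Its call between DDC and D0 (adjusted p = 0.0466), where 1.76% of 13114 genes were called, was lost with thinned cells, with at least 50 cells, without the protocol term and without either library of D9, D19 or D25, and no change is read from it. Apoe in BECs measured 8961 CPM at D0 of protocol A, 1500.2 to 6189 CPM under DDC and 10336 CPM in the STOP library, a log2 fold change of -2.01 against 1 D0 library. Every DDC library lay below D0, and edgeR did not call the difference while DESeq2 did.

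Over the 10 gates, and among 5940 genes with at least 50 CPM in 1 gate, genes with mean levels most like those of Trem2 included Ccl24 (Pearson r = 0.953), a chemokine, C3ar1 (0.953), the receptor of complement C3a, Gpnmb (0.952), and Cmklr1 (0.950), the receptor of chemerin. This likeness is over 10 gate means of the same libraries and is a description. Among the other members r was 0.912 for Lpl, 0.878 for Apoe, 0.804 for Plin2, 0.775 for Lgals3, 0.766 for Abca1, 0.544 for Tyrobp, 0.517 for Fabp5 and 0.0934 for Cd9. By this measure Gpnmb had rank 4 of 5940 and Cd9 rank 2089.

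The genes around these members were taken as 5 lists. Of the Trem2-Tyrobp signaling list (Hcst, Syk, Plcg2, Inpp5d, Btk, Vav1, Pik3ap1, Adam10, Adam17 and Ms4a7), none of 10 was called in Clec4f- macrophages at progression by edgeR, with 1 at an unadjusted p under 0.05 and 0 called by DESeq2, and the median log2 fold change was -0.23. Of 10 genes of lipid and apoptotic cell uptake, 4 were called higher and none lower (median 1.08), where 4.39% of all genes were called, among them the fatty acid and oxidized lipoprotein receptor Cd36 (1.87, SE 0.36, adjusted p = 0.0184), the endocytic receptor Lrp1 (1.62, adjusted p = 0.0134) and the scavenger receptor Msr1 (1.18, adjusted p = 0.0280). Of 10 genes of sterol handling, 2 were called higher, Lipa, the lysosomal acid lipase (1.59, adjusted p = 0.00480), and Soat1, which esterifies cholesterol (1.01, adjusted p = 0.0244). Of 10 genes of droplets and lipolysis, 1 was called higher, Cpt1a of mitochondrial fatty acid import (1.12, adjusted p = 0.0388). Of 20 lysosomal and other genes of this macrophage state, 5 were called higher and none lower, among them Syngr1 (4.45, SE 0.54, adjusted p = 0.00223) and the protease Ctsd (3.36, SE 0.54, adjusted p = 0.00783). Atp6v0d2 of the proton pump is also among the 5, but its 3.77 and 0.478 CPM at D0 are 4 UMIs and 1 UMI, against 28.5 to 165 CPM at progression, and its fold is not read. At onset, Lipa (1.26, adjusted p = 0.0352) and Syngr1 (3.36, adjusted p = 0.0225) were the genes called on these lists, where 0.8% of all genes were called. For uptake none was called at onset by edgeR, but the unadjusted p of 7 was under 0.05 and the DESeq2 fit called 5. The median of all genes was 0.07 at progression.

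In Clec4f+ macrophages at progression, Cd36 rose by 2.08 (SE 0.28, adjusted p = 0.00576) and Cd63, a tetraspanin of late endosomes, by 3.25 (SE 0.62, adjusted p = 0.0227). Mmp12, a macrophage elastase, was called at 5.02 (SE 0.76, adjusted p = 0.0103). It had no UMI in D0 of protocol B and so passed the filter on low counts only through the DDC libraries. No change is read from its calls. Atp6v0d2 had no UMI in either D0 library and measured 16.9 to 160 CPM at progression, where 3 UMIs stand for 15.1 CPM in D0 of protocol B. It passed the filter on low counts only through the DDC libraries, so that no fold or test is read from it. Nr1h3, the oxysterol receptor LXRα that drives Abca1 and Apoe, was the 1 list gene that edgeR called lower, at -1.40 on the log2 scale (SE 0.24, adjusted p = 0.0145). Other list genes were at lower levels without passing the test, such as Timd4 at 407 and 502 CPM at D0 and 159 to 335 CPM at progression and Syk at 226 and 251 CPM and 122 to 180 CPM. Where 1.8% of all genes were called, those of the lists were 1 of 10 for uptake, 0 higher and 1 lower of 10 for sterol handling and 4 of 20 for the lysosomal list, and none for signaling (3 at an unadjusted p under 0.05, 2 by DESeq2) or for droplets (2 and 0). The 4 include Atp6v0d2 and Mmp12, from whose tests nothing is read, so that the lysosomal count is not set against this share. At onset, where 0.146% of all genes were called, Cd36 rose by 1.71 (adjusted p = 0.0362). Mmp12 was called there at 4.27 (adjusted p = 0.0447), from which no change is read either.

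Between the gates, Kupffer cell receptors for apoptotic cells and modified lipoproteins were lower in Clec4f- macrophages, with Timd4 at -6.15, Msr1 at -1.18 and Mertk at -1.12 on the log2 scale (adjusted p = 3.71e-14, 1.73e-08 and 3.39e-06 by edgeR), and 7 of the 10 uptake genes were lower and 1 higher, where 40% of all genes were called in either direction. Of the sterol list 6 were lower and 2 higher, with Nr1h3 at -1.81, Mylip at -0.56 and Lipa at -0.47, and with Npc2 among the higher ones at 0.35. Of the signaling list 6 were lower and 1, Ms4a7, higher (2.29), and the lower ones included Vav1 at -0.54, Adam17 at -0.32 and Hcst at -0.29. The lysosomal list was split, with 10 higher, among them Syngr1 at 2.99, Spp1 at 2.19 and Cd63 at 1.71, and 6 lower, among them Creg1 at -1.17, Grn at -0.98 and Tfec at -0.96. Of the droplet list 2 were higher and 2 lower, the latter Hilpda at -1.22 and Cpt1a at -0.50, which is 4 of the 9 genes tested and near the 40% of all genes. Spp1 is also expressed by BECs.

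After 7 days without DDC the 1 STOP library could be set beside D19 and D0 of the same protocol, with no replicate and no test. In Clec4f- macrophages Trem2 measured 144 CPM at D0 (95% Poisson interval 128 to 161, counting error only), 909 CPM at D19 (892 to 926) and 218 CPM in STOP (209 to 228). Gpnmb measured 21.5, 1397 and 156 CPM, Lpl 75.1, 1195 and 262 CPM, and Apoe 8366, 38224 and 13896 CPM. These 4 genes were thus at 0.240, 0.111, 0.219 and 0.364 times their D19 level and still above D0. Over the set, 9 of the 10 genes lay below D19, with intervals that did not overlap, and 9 lay above D0. Tyrobp lay below both, at 1635 CPM against 2952 CPM at D0 and 2925 CPM at D19. Of all genes with at least 10 UMIs in the 2 libraries compared, 11.5% of 14922 lay below D19 and 41.1% of 13864 above D0 in this way. Barcodes that met another lineage's rule were 70.1% of this gate in STOP, 36.2% at D19 and 28.7% at D0, and their part in these levels was not tested. Cd9 (531 against 619.6 CPM at D19) and Fabp5 (788 against 1115 CPM) stayed nearer to D19, at 0.858 and 0.707 times its level. Plin2 lay above D19, at 455 CPM (442 to 468) against 366 CPM (355 to 376).

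In Clec4f+ macrophages of STOP all 10 genes lay below D19 by intervals that did not overlap, where 8.58% of 11510 genes did. Barcodes that met another lineage's rule were 60.8% of this gate in STOP, 27.6% at D19 and 37.8% at D0, and their part was not tested. Trem2 measured 122 CPM against 929 CPM at D19, Gpnmb 54.8 against 739 CPM, and Lgals3 1056 against 3771 CPM. Lpl measured 636 CPM (606 to 668), against 1978 CPM at D19 and 945 CPM (815 to 1090.1) at D0, and was the 1 gene below D0 in this gate. Another 7 genes lay above D0, where 8.11% of 10723 genes did, and Tyrobp and Abca1 overlapped it. After thinning, the share of Clec4f- macrophages with Trem2 was 26.0% in STOP and 62.3% at D19, and that with Gpnmb 14.02% and 42.3%. A single library differs from another also by its cells and its handling, and which of these differences recovery accounts for cannot be told apart.

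**Figure D5:**
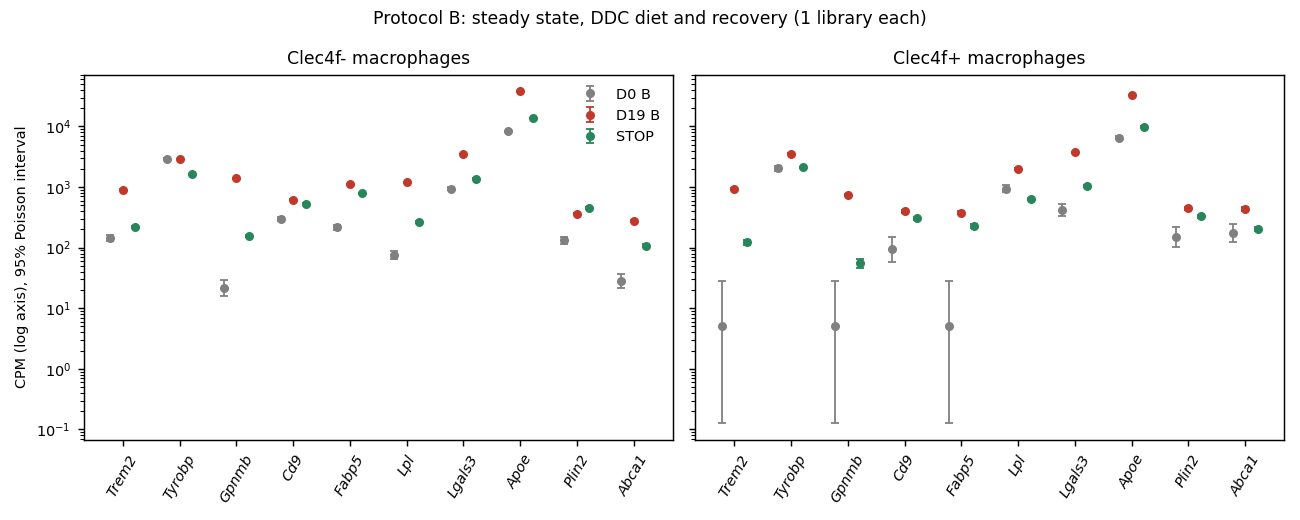
Level of the 10 genes (CPM, log axis) in D0, D19 and STOP libraries of protocol B with 95% Poisson intervals, in the Clec4f- and Clec4f+ gates, 1 library each. Most genes of STOP lie between D0 and D19, Plin2 of Clec4f- macrophages lies above D19, Tyrobp of Clec4f- macrophages lies below D0 and D19, and Lpl of Clec4f+ macrophages lies below D0.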

How the data were processed

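The deposited matrices hold raw UMI counts of all barcodes, which the authors obtained with kallisto on GRCm38 per the labels (versions not given in the sources used here). The authors' own minimum of 1500 transcripts per cell was kept. Libraries held 29307190 to 108602421 UMIs, 65.0 to 93.4% of them in the 1541 to 14764 barcodes above that minimum, with a median of 3350 to 12013 UMIs per barcode. Intervals cover counting error only.

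Cells were gated by UMIs as described above. DC, BEC, monocyte, T, B, neutrophil, endothelial, stellate and hepatocyte gates needed at least 2 to 50 UMIs of their markers, at most 1 C1q UMI and no other gate, and no clustering or doublet caller was used. Gates of under 20 cells in a library were left out, and hepatocytes reached no such gate. Raw counts were summed per library and gate and tested with edgeR 4.0.16 in R 4.3.3 (filterByExpr, TMM, quasi-likelihood F test, Benjamini-Hochberg over all genes at 0.05), with isolation protocol as a term for stages and library as a block between gates. SE is the log2 fold change over the square root of F. DESeq2 1.42.0 was an alternative. Shares were tested by exact permutation of libraries within protocol. Median shifts of all genes were at most 0.07, so fold changes are given as fitted.

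The 10 genes and the gene lists were chosen with earlier results of these data known. Genes named are the 10, in each comparison the up to 3 list genes per direction with the largest called log2 fold change at a mean log2 CPM of at least 5, and the 5 genes most like Trem2. Where the study's methods used clusters, UMI gates were used here, which can mix lineages. On simulated counts with 200 genes changed by a log2 of 2, the fit recovered 57% in the Clec4f- progression comparison (13356 genes), 55.5% in the Clec4f+ one (11282 genes), 97.5% between the gates (11602 genes) and 44% for the interaction (13704 genes). Some genes that the naming rule selects are not reported here.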

Additional observations from a re-analysis of the deposited data

Results flagged for a closer look

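Of 48 groups of 4 to 6 libraries that were examined for a library far from the others, 1 was found. This is no more than chance gives, about 1 in 20 groups. Lgals3 in Clec4f+ macrophages at progression was at 3771 CPM in D19 of protocol B, the nearest of the other 5 libraries at 1912 CPM and the lowest at 902 CPM. The gap is 0.648 of the whole range.

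In the Clec4f- gate at D0, Lpl was at 0.893 times the free RNA in protocol A, and DC markers summed to 18932 and 36211 CPM. The part of free RNA in the next result was not tested. Lpl changed with DDC more in Clec4f- than in Clec4f+ macrophages, by 1.99 on the log2 scale (SE 0.25, adjusted p = 0.00142 by the interaction term in edgeR). It was 1.75 without D0 of protocol B, whose Clec4f+ gate holds 37 cells (adjusted p = 0.0758), 1.71 with gates of at least 50 cells (adjusted p = 0.0211) and 1.64 in protocol A alone (adjusted p = 0.159).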

How the results depend on the processing

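Fold changes of the 10 genes that were called with all libraries kept their direction under every alternative. Between DDC and D0 in DCs, where none was called with all libraries, 3 were called under an alternative and had the other direction under another one. Abca1 was at 3.18 in protocol B and -0.40 in protocol A, Tyrobp at -0.88 without D0 of protocol A and 0.69 without D0 of protocol B, and Apoe at -0.37 with all libraries (adjusted p = 0.825), 2.25 in protocol B alone (adjusted p = 0.0113), 2.26 without D0 of protocol A and -1.49 without D0 of protocol B. Counts of calls moved more, and those that moved by over 1.5 times follow, for all genes with those for the 10 genes after them in brackets. Clec4f- cells at onset (110, 3 of the 10) gave 595 (5) with DESeq2, 378 with no filter on low counts, 209 (5) with other lineages left out, 42 without the protocol term, 19 (0) in protocol A and 614 in protocol B. At progression (603, 8) they gave 1196 with DESeq2, 302 with cells thinned to 1500 UMIs, 292 (5) without the protocol term, 4 (0) in protocol A and 1591 (5) in protocol B. Between onset and progression (2, 0) they gave 205 (2) with DESeq2, 64 with no filter, 16 with other lineages left out and 0 with thinning, without the protocol term and in either protocol. Clec4f+ cells at onset (17, 0) gave 328 (6) with DESeq2, 711 (5) with no filter, 60 (3) with thinning, 32 (3) with other lineages left out, 11 with at least 3000 UMIs, 3 with a C1q sum of at least 10, 1 with at least 5 Clec4f UMIs, with at least 50 cells, without the protocol term or in protocol A, and 0 in protocol B. At progression (210, 7) they gave 700 with DESeq2, 944 with no filter, 362 with other lineages left out, 117 with at least 5 Clec4f UMIs, 59 (2) without the protocol term, 20 (0) with at least 50 cells, 4 (0) in protocol A and 5 (0) in protocol B. Between onset and progression (8, 0) they gave 133 (1) with DESeq2, 690 (6) with no filter, 17 (1) with thinning, 3 with at least 3000 UMIs, 4 with at least 5 Clec4f UMIs or at least 50 cells, and 0 without the protocol term or in either protocol. Between the gates (4670) 1840 were called in protocol B and 1860 with thinning. The interaction (8, 1) gave 92 with DESeq2, 206 (2) with no filter, 46 with thinning, 42 with other lineages left out, 22 with a C1q sum of at least 10, 5 with at least 3000 UMIs or at least 50 cells, 5 (0) in protocol A and 157 (2) in protocol B. Clec4f- cells against DCs (6566) gave 4377 in protocol A and 2422 with thinning, and against BECs (8492) 3384 with thinning. DDC against D0 gave in DCs (15, 0) 306 (1) with DESeq2, 42 with no filter, 182 with thinning, 7 without the protocol term, 0 in protocol A and 2462 (4) in protocol B, and in BECs (231, 1) 500 (4) with DESeq2, 937 (6) with no filter, 77 (0) with thinning, 412 (5) in protocol A, and 0 of the 10 without the protocol term or with at least 50 cells. The cause of these moves was not tested.

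Leaving out 1 library at a time gave 19 to 1000 genes (1 to 4 of the 10) for Clec4f- onset, 306 to 1602 (3 to 8) for Clec4f- progression, 0 to 5 between these stages, 0 to 57 for Clec4f+ onset, 6 to 277 (0 to 7) for Clec4f+ progression, 0 to 34 between these, 3946 to 4748 between gates, 2 to 172 (0 to 2) for the interaction, 5943 to 6671 against DCs, 7952 to 8630.0 against BECs, 6 to 2247 (0 to 4) for DCs and 0 to 643 (0 to 5) for BECs. Differences of shares ran from 26.7 to 29.9 points for Trem2 and 28.7 to 31.2 for Gpnmb in Clec4f- cells, 30.0 to 36.0 for Trem2 and 13.8 to 18.3 for Gpnmb in Clec4f+ cells, and 19.3 to 23.0 for Gpnmb by Trem2 status. With a detection limit of 2 UMIs the Trem2 difference in Clec4f+ cells was 13.6 points and no longer passed, and without thinning the Gpnmb difference was 33.2 points and passed. Between diet groups, no paired analysis was possible because the labels number no replicates across them, and isolation protocol is a term of those fits. The 37 Clec4f+ cells of D0 in protocol B, where 3 UMIs stand for 15.1 CPM, limit what can be said of low genes in that gate.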
